A study of Mus musculus with 35 samples.

Results

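The 39 genes described here belong to glycolysis and to the cellular response to low oxygen. They were chosen by name from a list written with earlier results of these data in view, and every one was looked up in the gene tables of the series. Of the 39, 38 are listed under their symbol among the 53715 genes of the back skin tables and all 39 among the 49585 genes of the tail, palate and tongue tables. The missing one is Aldoa, an aldolase of the main glycolytic route, which appears in back skin as 2 numbered entries that were not used. By role they are 15 enzymes of the pathway (Hk1, Hk2, Gpi1, Pfkl, Pfkm, Pfkp, Aldoa, Aldoc, Tpi1, Gapdh, Pgk1, Pgam1, Eno1, Eno2 and Pkm), 2 lactate dehydrogenase subunits (Ldha and Ldhb), 4 transporters, 2 pyruvate dehydrogenase kinases (Pdk1 and Pdk3), 2 enzymes that set the level of fructose 2,6-bisphosphate (Pfkfb3 and Pfkfb4), the oxygen-regulated factor Hif1a with its prolyl hydroxylases Egln1 and Egln3, and 11 genes that respond to that factor. The transporters are the glucose carriers Slc2a1 and Slc2a3 and the lactate and pyruvate carriers Slc16a1 and Slc16a3. Every listed member passed the filter on low counts in each comparison.

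Glycolysis splits glucose into pyruvate, which either enters the mitochondria through pyruvate dehydrogenase or is turned into lactate by lactate dehydrogenase and leaves the cell through monocarboxylate carriers. When oxygen is plentiful, prolyl hydroxylases mark HIF-1α for destruction, and when it is scarce the factor accumulates, pairs with ARNT and switches on glycolytic enzymes, glucose carriers, pyruvate dehydrogenase kinases, Vegfa and the hydroxylase genes themselves. The epidermis has no blood vessels of its own, and keratinocytes are known for high use of glucose and release of lactate.

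The study compared slowly and rapidly dividing epithelial stem cells of 4 mouse tissues with cells of upper epidermal layers and of the hair follicle bulge. All groups came from C57BL/6J mice of 2 months that carry K5-tTA and pTRE H2B-GFP, in which the keratin 5 promoter drives a tetracycline-controlled activator of a green histone. Doxycycline, given for 2 weeks before skin was taken and for 10 days before oral tissue was taken, stops new label, so that cells which divide less keep more of it. The length of doxycycline thus differs with tissue, and a difference between skin and oral groups cannot be told apart from it. Label-retaining cells (LRC) and non-label-retaining cells (nLRC) were sorted by flow cytometry. The 35 libraries form 13 groups, which are the basal LRC, basal nLRC, spinous LRC, spinous nLRC, granular and bulge cells of back skin (n = 3 each), the basal LRC, basal nLRC and bulge cells of tail skin (n = 3 each), and the basal LRC and nLRC of palate and of tongue (n = 2 each). Nothing in the labels ties the libraries of 1 group to separate mice, and every p-value therefore speaks only of variation among these libraries, part of which may be technical.

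Libraries held 8421582 to 20560481 reads on genes. Summed markers followed most labels: the oral keratins reached 2803 to 12400 CPM (reads relative to the TMM-scaled library size) in palate and tongue and at most 3.35 in skin, and bulge markers 699 to 1484 in the bulge groups and at most 188 in other skin groups. Granular markers overlapped, at 97.3 to 609 CPM in granular cells, 18.5 to 111 in spinous LRC and 7.74 to 143 in the back bulge. The group labelled spinous nLRC stood apart, with 2063 to 3872 CPM of spinous markers against 10495 to 15717 in spinous LRC and 1947 to 3255 in basal LRC, and with the sebocyte markers given beside its results. Among single libraries, the second bulge library of back skin had a median intron share of 8.93% against 23.9 to 39.9% in the other 17 back skin libraries and the second nLRC library of palate 4.70% against 11.3 to 30.7% in the other tail and oral libraries. Back skin was tabulated on another gene list than the other tissues, so no test crosses that border, and a difference in level between back skin and the rest cannot be told apart from the processing.

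Levels can be compared between genes only per length, and here that scale is TPM recalculated over nuclear protein-coding genes without histones. In back skin Pkm, the pyruvate kinase of epithelial cells, had the highest mean level of the listed members in all 6 groups, from 474 ± 43.7 TPM (SD, n = 3) in granular cells to 793 ± 66.8 in basal LRC. Tpi1, Pgam1, Ldha and Ddit4, an mTORC1 inhibitor induced by stress and hypoxia, also stood above 200 TPM in each of those groups. In tail and oral groups Aldoa, at 348 ± 10.2 to 577 ± 56.3 TPM, Pkm, at 494 ± 23.3 to 792 ± 87.9 TPM, and Ldha, at 387 ± 16.4 to 591 ± 89.1 TPM, were among the highest. The neuronal enolase Eno2, at 0.395 to 1.84 TPM, and the high-affinity glucose carrier Slc2a3, at 0.0919 to 1.54 TPM, were lowest. Ddit4 had means of 332 to 452 TPM in back skin and of 41.1 to 74.8 TPM elsewhere, across the border of the processing; its SD within the back groups was 179 to 243 TPM.

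Among isoenzymes, shares of TPM within a library show which form made up the pool. Slc2a1 held at least 98.6% of the summed Slc2a1 and Slc2a3 on average in every group. Hexokinase was mainly Hk1: Hk2, the inducible form, took 8.96 ± 2.6% (SD, n = 3) of the pair in back basal LRC and 10.1 ± 0.94% in back basal nLRC, but 44.4 ± 10% in the back bulge. Ldhb, the subunit that favours lactate oxidation, took 0.826 to 24.99% of the lactate dehydrogenase pool in 12 groups and 56.8 ± 12% in back spinous nLRC, where its 3 libraries stood at 64.6, 62.7 and 43.2%. Slc16a3, the lactate exporter of glycolytic cells, took 55.4 ± 12% of the 2 lactate carriers in back basal LRC and 51.7 ± 16% in back spinous LRC, against 4.30 ± 1.6% in back spinous nLRC and 0.780 to 4.03% in the 4 oral groups. Pdk1 took 57.3 to 63.1% of the 2 kinases in the epidermal groups of back skin, 40.3 to 42.6% in tail groups and 21.0 to 26.4% in oral groups. A difference in share between back skin and the other tissues cannot be told apart from the processing.

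**Figure D1:**
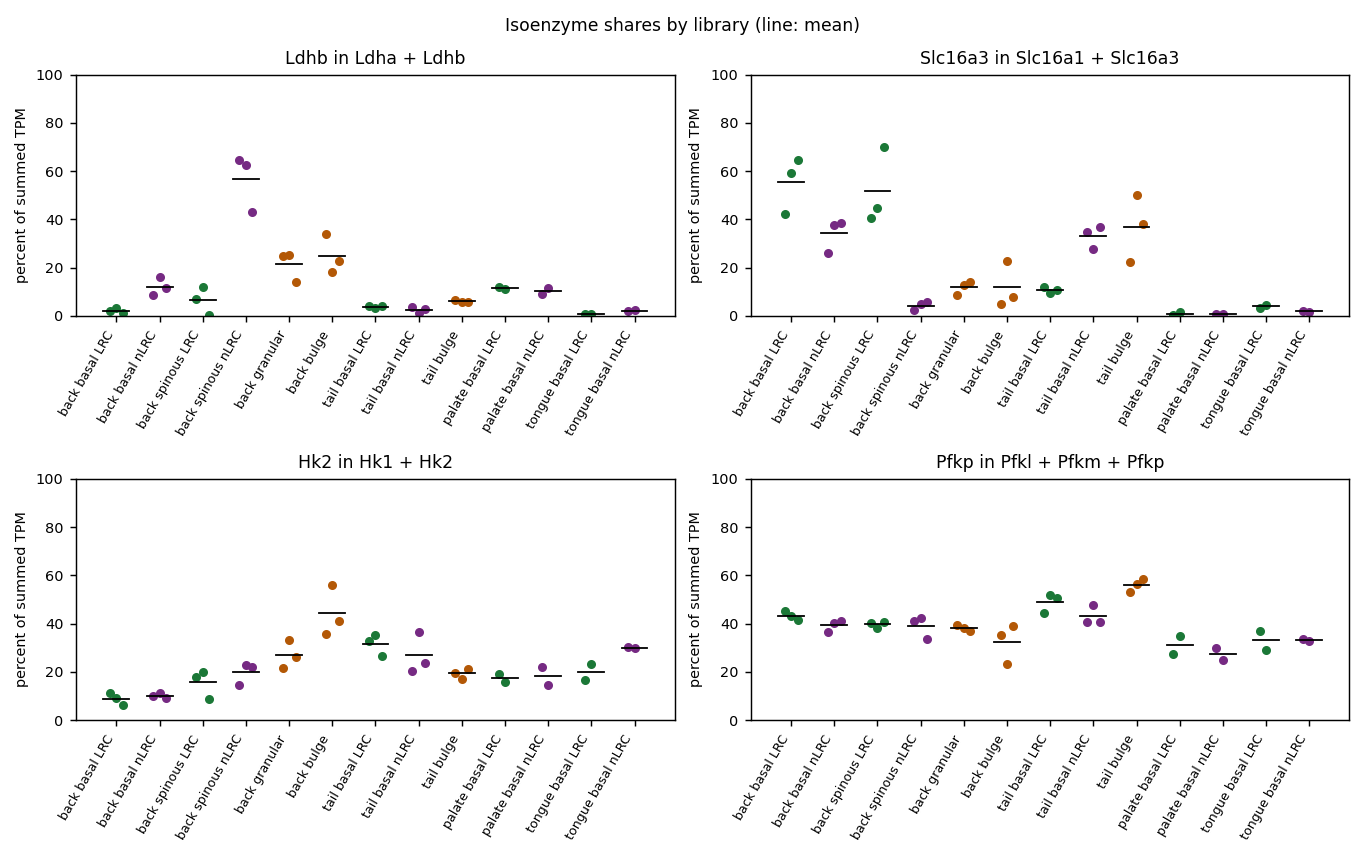
Share of Ldhb, Slc16a3, Hk2 and Pfkp in the summed TPM of their isoenzymes (y axes, percent) in each library of the 13 groups (x axes). Each point is 1 library and each line a group mean, green for LRC, purple for nLRC and brown for bulge and granular cells. The Ldhb share reached 43.2 to 64.6% in back spinous nLRC, and the Hk2 share 35.9 to 56.0% in the back bulge.

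Hif1a encodes the oxygen-regulated subunit of HIF-1. Its level in back skin was 297, 361 and 401 CPM in basal LRC, 224, 254 and 237 in basal nLRC, 188, 244 and 289 in spinous LRC, 135, 193 and 171 in spinous nLRC, 146, 149 and 219 in granular cells and 163, 192 and 236 in the bulge. In tail skin it stood at 172, 136 and 152 CPM in basal LRC, 301, 204 and 242 in basal nLRC and 373, 316 and 298 in the bulge. Palate held 206 and 260 CPM in LRC and 297 and 382 in nLRC, and tongue 148 and 144 in LRC and 147 and 163 in nLRC. In back skin every basal LRC library lay above every other epidermal library of that skin, and in tail skin every basal LRC library lay below the basal nLRC.

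Vegfa, the vascular growth factor that HIF-1 induces, stood at 16.9, 38.5 and 29.0 CPM in back basal LRC, 8.93, 22.7 and 14.1 in basal nLRC, 13.8, 22.7 and 17.7 in spinous LRC, 16.0, 39.8 and 17.6 in spinous nLRC, 8.74, 35.7 and 13.1 in granular cells and 9.84, 28.0 and 5.804 in the bulge. Tail skin gave 14.9, 24.8 and 11.96 CPM in basal LRC, 9.90, 26.2 and 5.14 in nLRC and 12.5, 33.0 and 14.7 in the bulge. Palate gave 14.1 and 10.1 CPM in LRC and 8.80 and 4.36 in nLRC, and tongue 14.1 and 19.8 in LRC and 10.8 and 13.6 in nLRC. It passed the test in none of the 14 comparisons, and its second library was the highest of its group in all 9 skin groups.

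Slc2a1 encodes GLUT1, the main glucose carrier of keratinocytes. It stood at 145, 224 and 189 CPM in back basal LRC, 124, 202 and 158 in basal nLRC, 106, 138 and 119 in spinous LRC, 116, 134 and 140 in spinous nLRC, 82.3, 134 and 86.4 in granular cells and 72.5, 79.7 and 78.6 in the bulge. Tail skin held 78.1, 94.2 and 69.0 CPM in basal LRC, 95.6, 127 and 74.8 in nLRC and 83.4, 85.3 and 60.9 in the bulge. Palate held 56.2 and 59.9 CPM in LRC and 73.9 and 92.3 in nLRC, and tongue 55.1 and 68.5 in LRC and 78.1 and 69.6 in nLRC. In both skins the second basal library was the highest of its group, and the back bulge was the lowest group of back skin.

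Ldha makes the subunit of lactate dehydrogenase that turns pyruvate into lactate. Its level was 142, 203 and 248 CPM in back basal LRC, 144, 178 and 180 in basal nLRC, 103, 149 and 164 in spinous LRC, 105, 166 and 156 in spinous nLRC, 98.9, 121 and 137 in granular cells and 96.0, 266 and 141 in the bulge. In tail skin basal LRC had 152, 125 and 133 CPM, nLRC 346, 245 and 205, and the bulge 162, 210 and 121. Palate LRC had 179 and 185 CPM and nLRC 196 and 281, and tongue LRC 171 and 251 and nLRC 192 and 174. Only in tail basal cells, among the 4 LRC and nLRC pairs of basal cells, did Ldha pass the test, and the test of the difference between oral and tail pairs gave 0.87 ± 0.31 on the log2 scale (adjusted p = 0.28, edgeR's quasi-likelihood test).

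Gapdh, the dehydrogenase in the middle of the pathway, has many processed pseudogenes, and reads that fit several copies may have been split or dropped, which holds also for Pgk1, Pgam1, Tpi1, Ldha, Pkm and Eno1. Of the reads on Eno1 and its copy Eno1b, 21.1 to 53.2% were counted on the copy. Gapdh stood at 30.2, 50.2 and 40.1 CPM in back basal LRC, 32.4, 52.7 and 35.2 in basal nLRC, 19.7, 38.2 and 24.4 in spinous LRC, 34.5, 67.6 and 34.0 in spinous nLRC, 20.3, 33.4 and 28.0 in granular cells and 27.9, 106 and 31.5 in the bulge. In tail skin the values were 31.9, 30.5 and 28.0 CPM in basal LRC, 65.0, 58.0 and 42.2 in nLRC and 53.2, 51.6 and 33.3 in the bulge. Palate gave 43.0 and 59.1 CPM in LRC and 54.3 and 86.8 in nLRC, and tongue 43.0 and 62.0 in LRC and 54.6 and 44.7 in nLRC. In the back bulge the library of low intron share, at 106 CPM, stood far above the other 2.

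**Figure D2:**
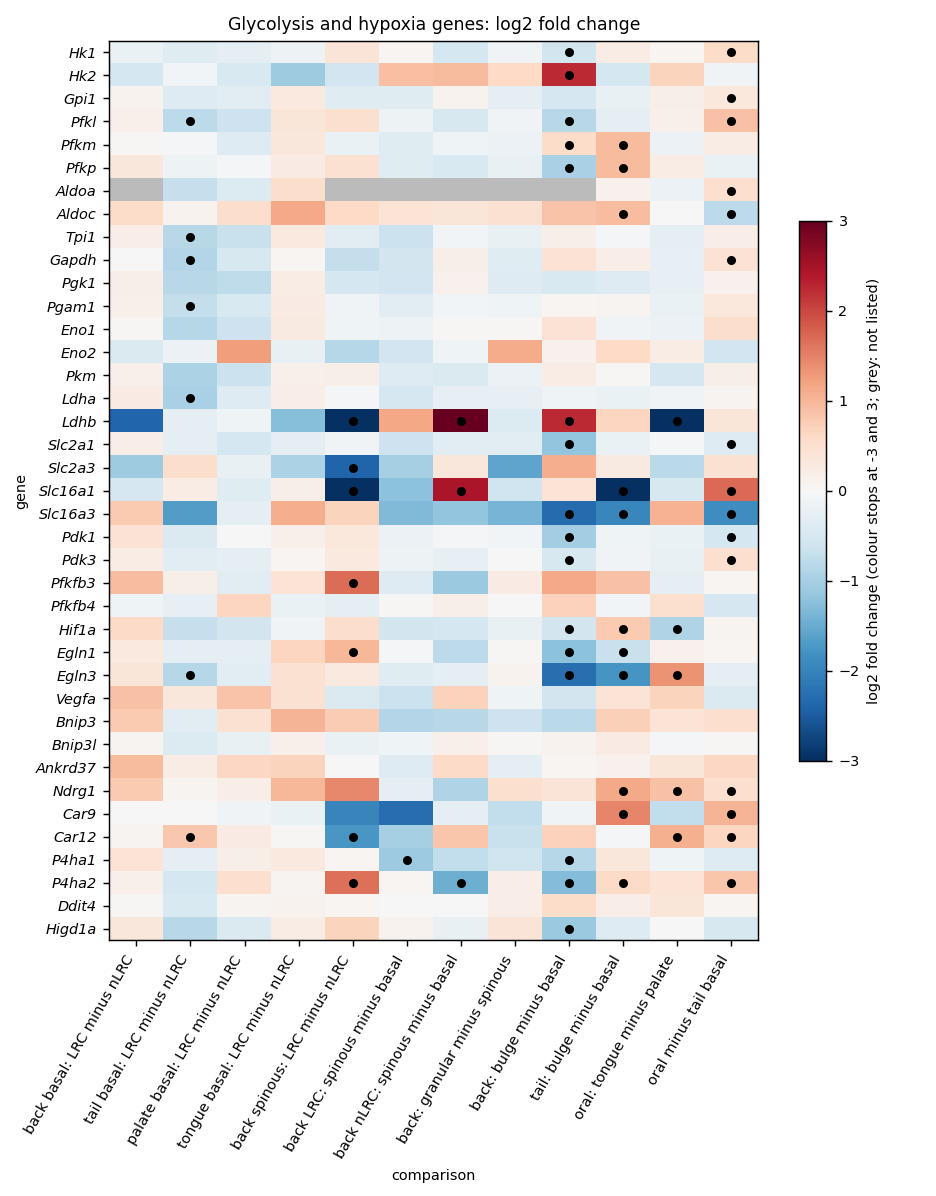
Log2 fold change (colour) of the 39 genes (rows, by role) in 12 comparisons (columns), with a dot where the adjusted p was under 0.05. Grey marks Aldoa, not listed by its symbol in back skin. Dots are most frequent for the back bulge (16), oral against tail (15) and the tail bulge (11), and absent from the LRC and nLRC pairs of back basal, palate and tongue cells.

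LRC and nLRC of the basal layer were compared in each tissue to ask how stem cells that divide at different rates differ. In back skin none of the 38 members passed the test (edgeR's quasi-likelihood test, Benjamini-Hochberg adjusted over 16574 genes), where 0.235% of all genes did (0.0121% higher and 0.223% lower in LRC), and 2 had an unadjusted p under 0.05. Those 2 were Hif1a, 0.57 ± 0.22 higher in LRC on the log2 scale (adjusted p = 0.70), and Ldhb, at 1.57, 3.19 and 2.23 CPM in LRC and 7.76, 17.3 and 11.8 in nLRC, a difference of -2.39 ± 0.62 (adjusted p = 0.17). For both genes the 2 groups did not overlap. Sebocyte markers stood at 125 to 180 CPM in LRC and 232 to 544 in nLRC and bulge markers at 7.37 to 13.96 and 17.98 to 35.8, and their part was not tested. The median difference over the members was 0.16 against -0.01 over all genes, and 31 of 38 were positive. With the replicate number as a block, and with DESeq2, 1 member, lower in LRC, passed. Of all 16574 genes 95 and 219 passed in these fits.

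In tail skin 7 of 39 members passed between basal LRC and nLRC, against 4.6% of all genes (3.12% higher and 1.48% lower). Of the enzymes on the route from glucose to lactate 5 were lower in LRC, given here on the log2 scale with edgeR's adjusted p. Pfkl, a phosphofructokinase and thus at the committed step, stood at 31.9, 28.0 and 27.7 CPM in LRC and 58.2, 48.1 and 44.9 in nLRC, a fall of 1.73-fold (-0.79 ± 0.14, adjusted p = 0.010). Tpi1, the triose phosphate isomerase, had 54.8, 39.4 and 43.1 CPM in LRC and 99.7, 78.2 and 66.7 in nLRC (-0.84 ± 0.20, adjusted p = 0.043). In each of these genes the highest LRC library was below the lowest nLRC library. Gapdh fell by 0.87 ± 0.21 (adjusted p = 0.043), the phosphoglycerate mutase Pgam1, at 68.4, 56.2 and 58.7 CPM in LRC and 116, 101 and 82.8 in nLRC, by 0.71 ± 0.17 (adjusted p = 0.042), and Ldha by 0.96 ± 0.24 (adjusted p = 0.049). For those too, no library of LRC reached the nLRC.

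The HIF hydroxylase Egln3, itself a HIF target, was also lower in tail basal LRC. It stood at 44.7, 58.2 and 42.1 CPM in LRC and 85.7, 102 and 77.0 in nLRC, a fall of 1.82-fold (-0.86 ± 0.19, adjusted p = 0.034 by edgeR's test). Car12, a membrane carbonic anhydrase that handles acid outside the cell, was the 1 member that rose, with 210, 251 and 240 CPM in LRC and 97.3, 155 and 150 in nLRC (0.81 ± 0.19, adjusted p = 0.038). Neither pair of groups overlapped. Hif1a itself was 0.70 lower on the log2 scale and missed the threshold (adjusted p = 0.051).

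Beyond the genes called, 31 of 39 members were negative in tail LRC, with a median of -0.34 against 0.02 over all genes, and 14 of the 15 pathway enzymes were negative with a median of -0.70. Pkm, at 308, 276 and 253 CPM in LRC and 716, 517 and 391 in nLRC, and Pgk1 had the same order without passing. The median intron share moved with the groups, 26.0 ± 6.0% in LRC and 16.9 ± 5.8% in nLRC (SD, n = 3), and so did the 5 basal keratinocyte markers, at 12893 to 13773 summed CPM in LRC and 22666 to 31766 in nLRC. Sebocyte markers stood at 90.2 to 128 CPM in LRC and 233 to 516 in nLRC, spinous markers at 3928 to 5126 and 2466 to 2759, and bulge markers at 102 to 188 and 41.6 to 67.8. The part of these in the result was not tested. On recalculated TPM, which rests on exon reads, Ldha stood at 399, 369 and 395 in LRC and 694, 551 and 530 in nLRC and Pfkl at 62.0, 53.3 and 56.8 against 85.4, 76.8 and 86.1, without overlap. On the deposited TPM with limma 0 of the 37 members tested there passed, with 446 genes called in all, and Ldha differed by -0.50 (adjusted p = 0.054). With the replicate number as a block 16 members passed, 1 higher and 15 lower. Of all 14993 genes 2055 passed in that fit, 1214 higher and 841 lower. Without the block, the count of members was 0 without the third LRC library, 1 without the first nLRC library, 2 without the first or second LRC or the second nLRC library, and 11 without the third bulge library, which shares the fit.

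**Figure D3:**
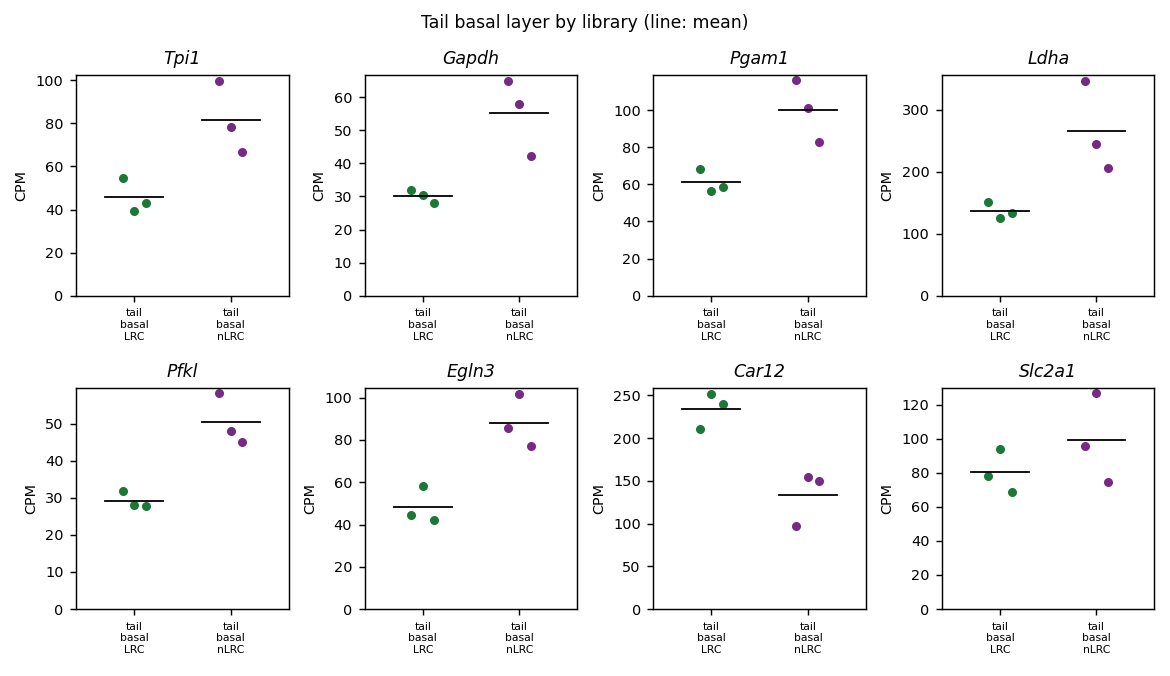
CPM (y axes, linear from 0) of 8 members in the 3 LRC (green) and 3 nLRC (purple) libraries of the tail basal layer, with a line at each mean. Of these 7 passed the test and are drawn with Slc2a1, which did not. The 3 LRC libraries lie below the 3 nLRC libraries for Tpi1, Gapdh, Pgam1, Ldha, Pfkl and Egln3 and above them for Car12.

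In palate 0 of 39 members passed between basal LRC and nLRC, as did 0% of all genes, and 6 had an unadjusted p under 0.05. The members' median was -0.30 against 0.01 over all genes, with 28 of 39 negative. Pgk1, a kinase of the lower pathway, had the smallest p at 48.4 and 69.3 CPM in LRC and 79.1 and 120 in nLRC (-0.77 ± 0.28, adjusted p = 0.64 by edgeR's test). The second nLRC library, that of low intron share, was the highest of the 4 for Pgk1, Pkm, Eno1, Aldoa and Ldha, and without it the median was -0.10. Without the first nLRC library 6 members passed, which leaves that library of low intron share as the lone nLRC and assumes that it varies like the other groups. Fibroblast markers stood at 38.5 to 61.1 CPM in palate LRC and 96.2 to 122 in nLRC, with 2 of the 5 at 0 reads in each group (Col1a2 and Lum in LRC, Col3a1 and Lum in nLRC). Endothelial markers stood at 3.87 to 14.8 CPM in LRC and 19.5 to 33.3 in nLRC and sebocyte markers at 36.0 to 45.95 and 50.2 to 51.2. The part of these was not tested. DESeq2 called 0 members as well.

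In tongue 0 of 39 members passed, against 0.0067% of all genes, with 6 at an unadjusted p under 0.05. The median was 0.21 against -0.01 over all genes, and 30 of 39 were positive. Ndrg1, a stress and differentiation gene induced by HIF, stood at 80.0 and 98.8 CPM in LRC and 48.2 and 40.4 in nLRC (0.999 ± 0.23, adjusted p = 0.30 by edgeR's test), and Hk2 at 14.0 and 25.6 CPM in LRC and 40.5 and 40.7 in nLRC (-1.06 ± 0.30, adjusted p = 0.55). Neither pair overlapped, and both missed the threshold. DESeq2 called 1 member. Fibroblast markers moved here too, at 35.7 to 75.8 CPM in LRC and 115 to 175 in nLRC, with Col1a2, Col3a1 and Lum of the 5 at 0 reads in LRC and Col3a1 and Lum in nLRC. Endothelial markers stood at 2.01 to 4.84 CPM in LRC and 24.3 to 32.8 in nLRC, and sebocyte markers at 15.5 to 17.5 and 27.6 to 29.99. The part of these was not tested. The mean LRC effect of palate and tongue differed from that of tail for 0 of 39 members, where 1.44% of genes passed (0.537% higher and 0.908% lower), although 31 of 39 were higher in oral tissue and the median difference was 0.52. DESeq2 called 2. An unadjusted p under 0.05 was reached by 10, led by P4ha2, a collagen prolyl hydroxylase, at 0.84 ± 0.22 (adjusted p = 0.085). Between oral tissue and tail skin the length of doxycycline differed too, and cannot be told apart from tissue here.

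Among spinous cells of back skin, Slc16a1 and Ldhb had the 2 smallest adjusted p-values of the members between LRC and nLRC, while Ldha and Slc16a3 overlapped between the groups and did not pass. Of 38 members 7 passed, 3 higher and 4 lower in LRC, against 15.5% of all genes (6.88% higher and 8.63% lower), so the share was near the background. Slc16a1, which encodes the monocarboxylate carrier MCT1, stood at 4.86, 8.85 and 4.86 CPM in LRC and 97.3, 155 and 89.6 in nLRC, an 18.4-fold fall (-4.20 ± 0.44, adjusted p = 2.2e-05 by edgeR's test). Ldhb stood at 4.25, 10.8 and 0.591 CPM in LRC and 100.02, 144 and 61.2 in nLRC (-4.28 ± 0.65, adjusted p = 0.00036). For both the groups lay far apart, and the nLRC libraries were the highest of back skin.

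The other 2 genes that fell in spinous LRC were Slc2a3 and Car12. Slc2a3 had 0.729, 0.969 and 0.525 CPM in LRC and 2.54, 4.89 and 4.41 in nLRC, at 8 to 79 reads a library (-2.40 ± 0.68, adjusted p = 0.024 by edgeR's test). Car12 had 49.8, 61.7 and 33.2 CPM in LRC and 163, 206 and 115 in nLRC (-1.74 ± 0.43, adjusted p = 0.010). Neither gene's groups overlapped. Higher in LRC were P4ha2, at 17.3, 28.8 and 23.4 CPM against 7.52, 7.68 and 6.78 (1.66 ± 0.33, adjusted p = 0.0027), and the HIF hydroxylase Egln1, at 123, 145 and 163 CPM against 77.1, 67.6 and 69.7 (1.01 ± 0.22, adjusted p = 0.0058). Pfkfb3, which makes the activator of phosphofructokinase, stood at 19.2, 35.8 and 33.4 CPM against 4.75, 9.10 and 14.1 (1.67 ± 0.52, adjusted p = 0.038). All 3 were higher in every LRC library.

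None of the 14 pathway enzymes listed in back skin passed between the 2 spinous groups. Sebocyte markers moved with the comparison: the 8 markers summed to 256 to 333 CPM in spinous LRC and 3121 to 6944 in spinous nLRC, none of them was at 0 in either group, and the spinous markers were lower in nLRC. The 5 bulge markers summed to 12.1 to 56.97 CPM in spinous LRC and 77.2 to 134 in nLRC, and the median intron share was 35.7 to 39.9% in LRC and 23.9 to 34.5% in nLRC. The part of these in the result was not tested, and in bulk samples more cells of a type and more RNA per cell cannot be told apart. Blocked by replicate number, 12 members passed, 7 higher and 5 lower, as did 3385 of all 16574 genes (1609 higher and 1776 lower). With limma on TPM 2 of the 37 members tested passed, as did 1065 of 15114 genes. The 2 members were Slc16a1 and Ldhb, while Egln1, P4ha2, Pfkfb3 and Car12 did not pass (adjusted p = 0.13, 0.12, 0.19 and 0.054). Without the second nLRC or the third LRC library the count was 4, with Car12 at an adjusted p of 0.0541 or 0.0605, and 12 without the second back bulge library, which shares the fit. Slc2a3 was lost without any of the 3 LRC libraries, or the second or the third of nLRC (adjusted p = 0.056 to 0.098), and Pfkfb3 without the first or second nLRC or the second or the third LRC library (0.091 to 0.14).

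Sequences upstream of 3 genes are shown because the accounts of the spinous and bulge cells turn on them: Slc16a1 and Ldhb passed between the spinous groups, and Egln3 passed in both bulges. Each is the 250 bases before the RefSeq transcription start in build GRCm38.p6, 5′ to 3′ on the gene's strand. The core of the HIF response element is ACGTG or GCGTG, and only ACGTG is in capitals, where it occurs on either strand. Adjacent matches on both strands overlap and read as 1 run. Slc16a1 lies on chromosome 3 (+ strand, chr3:104638414-104638663), Ldhb on chromosome 6 (- strand, chr6:142507958-142508207) and Egln3 on chromosome 12 (- strand, chr12:54203875-54204124), each window outside the annotated span of its own gene.
Slc16a1: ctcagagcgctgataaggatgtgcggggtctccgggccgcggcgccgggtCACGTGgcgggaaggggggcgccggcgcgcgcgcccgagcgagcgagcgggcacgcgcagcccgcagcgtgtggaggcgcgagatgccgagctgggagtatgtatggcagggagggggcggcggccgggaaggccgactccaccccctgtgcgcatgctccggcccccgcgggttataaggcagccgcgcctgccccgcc
Ldhb: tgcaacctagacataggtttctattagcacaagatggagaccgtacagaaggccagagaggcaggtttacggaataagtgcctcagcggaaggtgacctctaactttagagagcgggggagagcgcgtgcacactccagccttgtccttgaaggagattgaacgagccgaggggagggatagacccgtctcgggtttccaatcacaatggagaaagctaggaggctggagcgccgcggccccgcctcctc
Egln3: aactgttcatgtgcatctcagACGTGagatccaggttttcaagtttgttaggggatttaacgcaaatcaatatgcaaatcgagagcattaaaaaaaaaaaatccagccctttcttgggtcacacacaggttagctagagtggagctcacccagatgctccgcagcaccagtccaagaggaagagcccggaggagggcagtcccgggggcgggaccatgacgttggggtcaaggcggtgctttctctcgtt
The window of Slc16a1 held 2 matches of ACGTG, 1 on each strand of a single CACGTG, that of Egln3 held 1 and that of Ldhb held 0. Of GCGTG, the window of Slc16a1 held 2, that of Ldhb 1 and that of Egln3 0. Of the members, 36 were matched by symbol to 50 RefSeq starts, 25 of which (50.0%) held ACGTG in the 250 bases, against 5444 of 32851 starts (16.6%) of all genes. GCGTG was held by 28 starts of members (56.0%) and 9250 starts of all genes (28.2%). A match is a run of letters and not evidence of binding.

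Spinous cells were compared with basal cells within each label class. In back LRC 1 of 38 members passed, against 6.05% of all genes (3.2% higher and 2.85% lower). P4ha1, a collagen prolyl hydroxylase induced by HIF, stood at 37.2, 64.5 and 69.9 CPM in spinous and 96.0, 142 and 130 in basal LRC (-1.10 ± 0.26, adjusted p = 0.017 by edgeR's test). The groups did not overlap. Of the 38 members 30 were negative and the median was -0.36 against 0.01 over all genes. Blocked by replicate number, 6 members passed, all lower in spinous cells, as did 1522 of all 16574 genes (781 higher and 741 lower). With limma on TPM 0 members and 361 of 15114 genes passed. P4ha1 was lost without the first spinous library or the second or the third basal library (adjusted p = 0.056 to 0.084), while without the first basal, the third spinous or the second back bulge library 2 members passed.

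In back nLRC 3 of 38 members passed, against 4.17% of all genes (2.75% higher and 1.42% lower). Slc16a1 was 5.49-fold higher in spinous than in basal nLRC, where it stood at 15.5, 28.4 and 18.3 CPM (2.46 ± 0.41, adjusted p = 0.0023 by edgeR's test), and Ldhb 8.25-fold higher (3.05 ± 0.61, adjusted p = 0.0086). P4ha2 was lower in spinous nLRC than in basal nLRC, which had 16.4, 30.3 and 14.0 CPM (-1.46 ± 0.33, adjusted p = 0.017). For these 3 genes the spinous and basal libraries did not overlap. Here too the markers moved: basal nLRC had 232 to 544 CPM of sebocyte markers and 17.98 to 35.8 of bulge markers, below the spinous nLRC, and their part was not tested. Blocked by replicate number, 7 members passed, 2 higher and 5 lower, as did 1189 of all 16574 genes (666 higher and 523 lower). With limma on TPM 1 member, Slc16a1, and 205 of 15114 genes passed, with Ldhb at an adjusted p of 0.054 and P4ha2 at 0.56. Ldhb was lost without the first basal library (adjusted p = 0.070) and P4ha2 without the second basal or any 1 spinous library (0.060 to 0.12). Without the second back bulge library 6 passed.

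The LRC effect differed between the spinous and the basal layer of back skin for Slc16a1 alone of 38 members, where 0.392% of genes passed (0.103% higher and 0.29% lower). Slc16a1 stood at 12.3, 19.4 and 12.2 CPM in basal LRC, so its basal LRC libraries overlapped the basal nLRC, and the difference of effects was -3.70 ± 0.57 on the log2 scale (adjusted p = 0.0093 by edgeR's test). An unadjusted p under 0.05 was reached by 6 members. The adjusted p for Slc16a1 was 0.050 without the first basal nLRC library, 0.055 without the first spinous LRC library and 0.17 with limma on TPM. With the replicate number as a block, as without the second back bulge library, 2 members passed. Over all genes 386 of 16574 and 866 of 17405 passed in these fits.

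Granular cells were set against the mean of both spinous groups, and 0 of 38 members passed, against 4.01% of all genes (2.47% higher and 1.54% lower). Among them 4 had an unadjusted p under 0.05. Slc16a3 stood at 2.39, 5.64 and 1.92 CPM in granular cells, 5.10, 10.7 and 17.2 in spinous LRC and 3.32, 9.48 and 8.06 in spinous nLRC (-1.40 ± 0.53, adjusted p = 0.18 by edgeR's test). These groups overlapped. With the replicate number as a block 2 members, both lower in granular cells, passed, and with DESeq2 0. Of all 16574 genes 1197 passed with the block and 1267 with DESeq2.

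**Figure D4:**
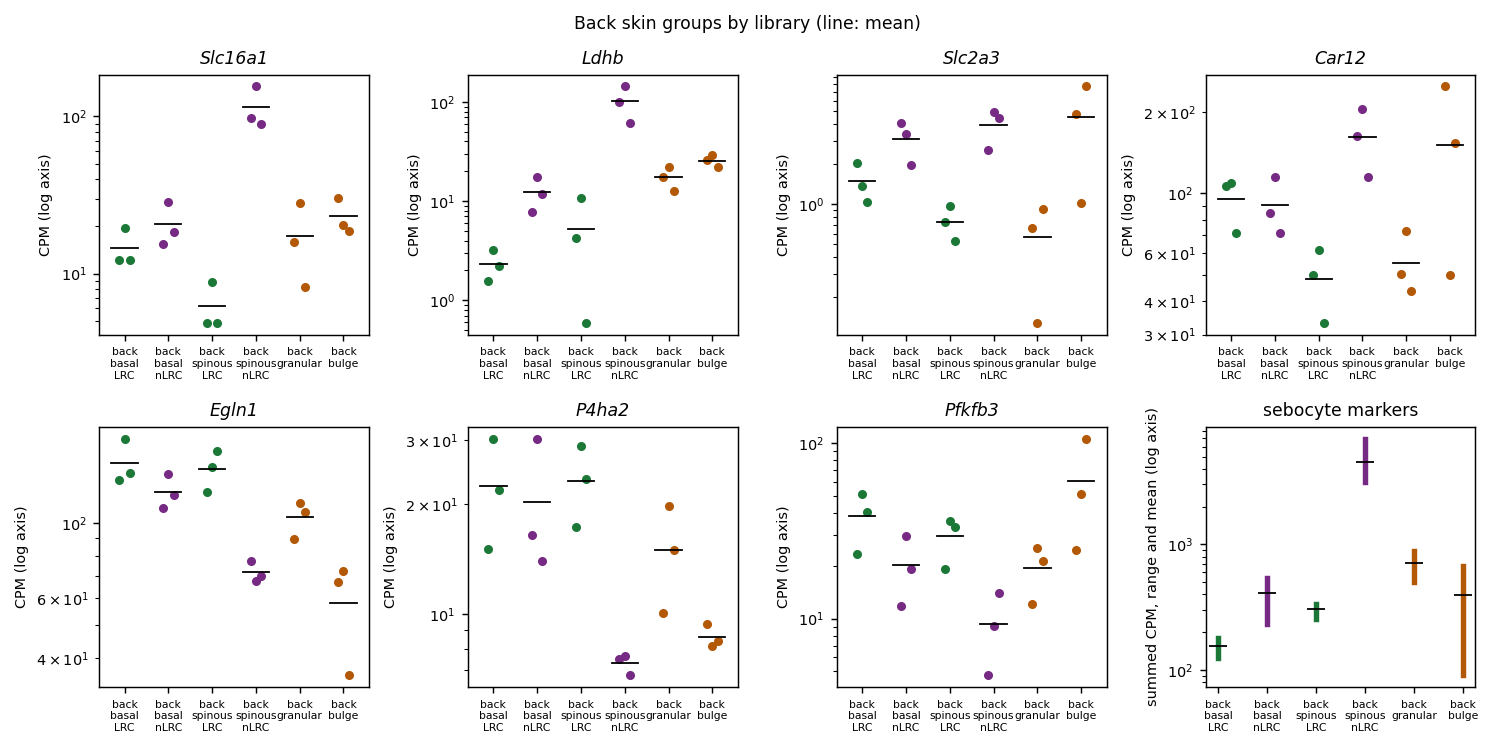
CPM (y axes, log scale) of the 7 members that passed between spinous LRC and nLRC, in the 18 back skin libraries (points, with a line at each mean), and the summed CPM of 8 sebocyte markers (bars from lowest to highest library). Spinous nLRC stands at 89.6 to 155 CPM for Slc16a1 and 61.2 to 144 CPM for Ldhb, above all other groups, as do its sebocyte markers.

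Bulge cells, the stem cells of the resting hair follicle, were set against the mean of basal LRC and nLRC of the same skin. In the back bulge 16 of 38 members passed, against 26.3% of all genes (15.7% higher and 10.6% lower), with 3 higher and 13 lower. The oxygen-sensing genes and the lactate exporter were lower and Hk2 and Ldhb higher. All 3 genes of the HIF factor and its hydroxylases fell.

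Hk2 stood at 50.8, 82.8 and 57.7 CPM in the back bulge, 13.7, 11.9 and 8.14 in basal LRC and 12.9, 20.0 and 15.8 in basal nLRC, a 4.70-fold rise (2.23 ± 0.31 on the log2 scale, adjusted p = 5.5e-05 by edgeR's test). Ldhb stood at 25.8, 29.2 and 21.9 CPM in the bulge, above all 6 basal libraries (2.25 ± 0.49, adjusted p = 0.0024). Both differences were larger than the spread of the libraries. Pfkm, the muscle-type phosphofructokinase, rose by less, from 17.8 to 21.8 CPM over the basal libraries to 24.3, 28.6 and 32.0 (0.55 ± 0.15, adjusted p = 0.014). The main epidermal form Pfkp instead stood at 136, 85.5 and 171 CPM in the bulge, 249.7, 313 and 311 in basal LRC and 203, 252 and 232 in basal nLRC (-0.98 ± 0.20, adjusted p = 0.0013).

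Among transporters of the back, Slc2a1 fell 2.26-fold in the bulge (-1.17 ± 0.20, adjusted p = 0.00041 by edgeR's test). Slc16a3, at 3.19, 7.97 and 2.29 CPM in the bulge, 16.6, 34.0 and 32.0 in basal LRC and 8.88, 24.3 and 14.4 in basal nLRC, fell 4.95-fold (-2.31 ± 0.56, adjusted p = 0.0056). No bulge library of either gene reached the basal libraries. Pdk1, which holds pyruvate back from the mitochondria, stood at 33.8, 20.0 and 45.0 CPM in the bulge, 65.3, 71.5 and 100.3 in basal LRC and 50.6, 63.1 and 62.6 in basal nLRC (-1.04 ± 0.24, adjusted p = 0.0037).

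Of the hydroxylases in the back bulge, Egln1 stood at 67.1, 72.2 and 35.7 CPM against 134, 177 and 140 in basal LRC and 111, 139 and 121 in basal nLRC (-1.23 ± 0.20, adjusted p = 0.00028 by edgeR's test). Egln3, whose upstream sequence is given above, stood at 12.8, 19.6 and 19.1 CPM against 36.9, 144 and 97.1 in basal LRC and 33.5, 121 and 60.6 in basal nLRC, a 4.79-fold fall (-2.26 ± 0.52, adjusted p = 0.0040). Both genes were lower in every bulge library than in any basal one. P4ha2 stood at 9.36, 8.18 and 8.44 CPM against 15.05, 30.2 and 21.8 in basal LRC and 16.4, 30.3 and 14.0 in basal nLRC (-1.29 ± 0.30, adjusted p = 0.0038). The remaining 6 that fell were Hk1, Pfkl, Pdk3, Hif1a, P4ha1 and the mitochondrial gene Higd1a, by 0.47 to 1.11 on the log2 scale, with overlap between groups for Hif1a and Higd1a only.

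The back bulge group also held more endothelial markers (30.1 to 259 CPM, against at most 1.97 in the basal groups), melanocyte markers (15.5 to 197, against at most 14.7) and fibroblast markers (3.63 to 30.5, against at most 1.01), and its second library was that of low intron share. The part of these in the result was not tested. Without the second bulge library 19 members passed, 5 higher and 14 lower. With limma on TPM 12 of the 37 tested passed, 1 higher and 11 lower, and Ldhb missed the threshold (1.80, adjusted p = 0.076), as did Hk1 (0.23), Pfkm (0.74), Pdk3 (0.30), Hif1a (0.087) and P4ha1 (0.11). All genes went from 2594 higher and 1759 lower in the main fit to 921 higher and 1007 lower. In the deposited TPM used there, nuclear protein-coding genes without histones held 33.2% in the second bulge library and 73.4 to 83.9% in the other back skin libraries. The part of this was not tested. Hif1a, at an adjusted p of 0.047, was also lost with median-of-ratios scaling (0.058) and without the first or second bulge library or the second or the third of either basal group (0.053 to 0.12). Higd1a was lost without the first or the third bulge library (0.057 to 0.064), Pfkm without the third bulge library (0.074), and Pdk3 without the second basal LRC or the third basal nLRC library (0.052 to 0.058). With no filter on low counts Hif1a, Pfkm and Pdk3 were lost (0.071, 0.11 and 0.12).

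In the tail bulge 11 of 39 members passed, against 24.6% of all genes (14.2% higher and 10.4% lower), with 7 higher and 4 lower, so the share was near the background. The lactate carriers and both HIF hydroxylases were lower, and Hif1a and 3 of its 11 response genes, Ndrg1, Car9 and P4ha2, higher. The other 8 response genes passed in neither direction. Slc16a1 stood at 1.57, 2.63 and 0.758 CPM in the bulge, 21.7, 26.0 and 17.4 in basal LRC and 19.6, 24.1 and 11.7 in basal nLRC, an 11.4-fold fall (-3.51 ± 0.37 on the log2 scale, adjusted p = 8.9e-05 by edgeR's test). Slc16a3 stood at 0.970, 3.20 and 0.606 CPM in the bulge, 3.59, 3.91 and 3.24 in basal LRC and 13.4, 11.9 and 9.13 in basal nLRC (-1.95 ± 0.44, adjusted p = 0.0096). The bulge libraries were the lowest for both carriers.

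Egln3 stood at 20.2, 22.2 and 13.9 CPM in the tail bulge, below the 42.1 to 102 CPM of all 6 basal libraries (-1.76 ± 0.19, adjusted p = 8.5e-05 by edgeR's test). Egln1 stood at 37.3, 48.2 and 41.2 CPM, just below the lowest basal library at 52.9 (-0.67 ± 0.21, adjusted p = 0.045). Hif1a was 1.71-fold higher in the bulge (0.78 ± 0.15, adjusted p = 0.0034), although its lowest bulge library, at 298 CPM, lay below the highest basal one, at 301 CPM. Ndrg1 stood at 56.7, 76.2 and 77.6 CPM in the bulge, 28.4, 41.2 and 30.8 in basal LRC and 28.4, 42.6 and 24.9 in basal nLRC (1.13 ± 0.19, adjusted p = 0.0020).

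Of the pathway enzymes 3 rose in the tail bulge, each without overlap. Pfkm stood at 23.4, 29.7 and 22.6 CPM against 12.3 to 14.7 in the basal libraries (0.95 ± 0.13, adjusted p = 0.00045 by edgeR's test). Pfkp stood at 201, 246 and 251 CPM against 101 to 150 (0.95 ± 0.14, adjusted p = 0.00088). Aldoc, the brain-type aldolase, stood at 9.63, 9.31 and 6.82 CPM against 4.03 to 5.41 (0.92 ± 0.20, adjusted p = 0.0072). The other 2 that rose were Car9, a hypoxia-induced carbonic anhydrase of low level (1.46 ± 0.45, adjusted p = 0.037), and P4ha2 (0.58 ± 0.16, adjusted p = 0.022).

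Endothelial markers moved with the tail bulge as well, at 66.6 to 106 CPM against 14.2 to 24.5 in the basal groups, as did fibroblast markers, at 12.9 to 27.8 against 0.504 to 6.96. Their part was not tested. With limma on TPM 14 of the 37 members tested passed, 6 higher and 8 lower, so the split turned from mostly higher to mostly lower. All genes turned the same way, from 2136 higher and 1557 lower in the main fit to 1168 higher and 1983 lower. P4ha2 was lost with limma on TPM (adjusted p = 0.25), with no filter on low counts (0.074) and without the first basal LRC or the first or the third bulge library (0.052 to 0.098). Car9 was lost without any 1 of 7 libraries, all but the second of each basal group (0.055 to 0.17), and Egln1 without any bulge library or the second or the third basal LRC library (0.060 to 0.14). Without the third bulge library 8 members passed.

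Back and tail bulge can be set side by side only as separate fits. Egln1, Egln3 and Slc16a3 passed as lower in both, with log2 fold changes of -1.23, -2.26 and -2.31 in back and -0.67, -1.76 and -1.95 in tail skin, and Pfkm passed as higher in both. Pfkp, Hif1a and P4ha2 passed in opposite directions, -0.98, -0.56 and -1.29 in back and 0.95, 0.78 and 0.58 in tail skin. Libraries of bulge and basal cells overlapped for Hif1a in both skins and for P4ha2 in tail skin. The back calls of Hif1a and Pfkm and the tail calls of P4ha2 and Egln1 did not hold in every alternative. Hk2 rose in back skin and stood 0.53 lower in tail skin without passing, and Slc16a1 fell in tail skin and was 0.41 higher in back skin without passing. The difference between the skins was not tested, since they were processed separately.

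**Figure D5:**
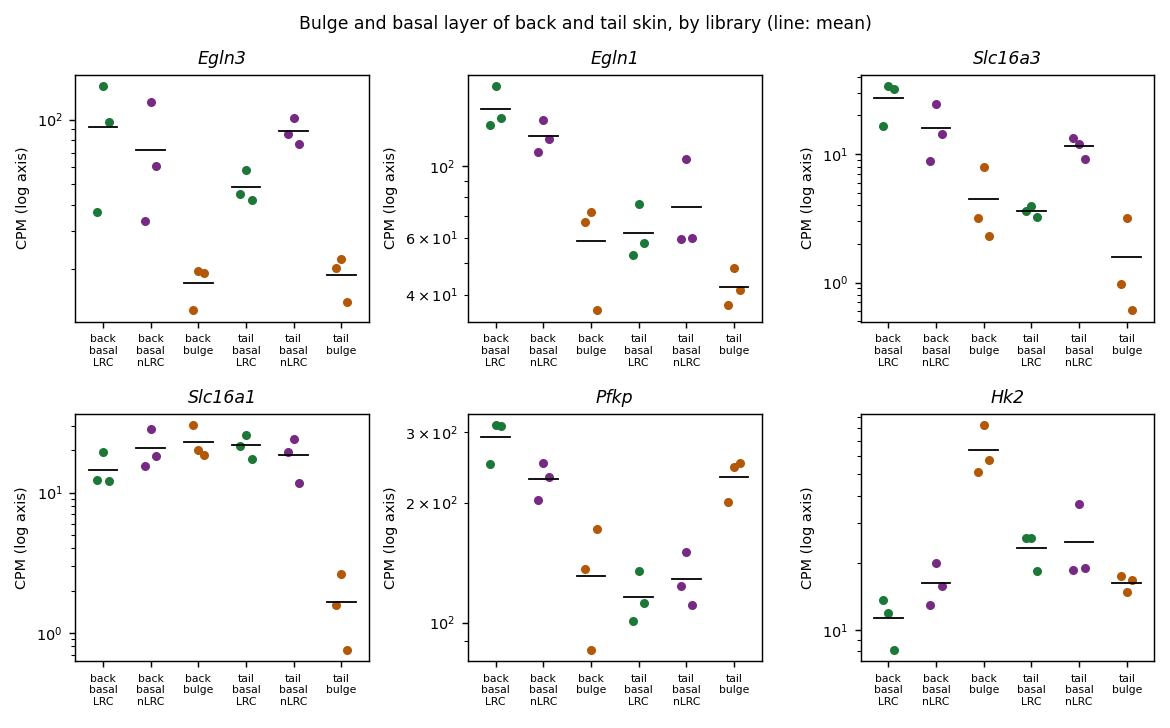
CPM (y axes, log scale) of 6 members in the basal LRC (green), basal nLRC (purple) and bulge (brown) libraries of back and tail skin, with a line at each mean. CPM were scaled separately in the 2 skins. Egln3, Egln1 and Slc16a3 are lower in the bulge of both, Slc16a1 only of the tail (0.758 to 2.63 CPM), and Pfkp and Hk2 lie on opposite sides of the basal cells in the 2 skins.

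Between tongue and palate basal cells 5 of 39 members passed, against 9.62% of all genes (4.91% higher and 4.71% lower). Ldhb stood at 1.004 and 0.820 CPM in tongue LRC and 2.31 and 2.11 in tongue nLRC, against 12.1, 13.1, 9.74 and 17.9 in palate, a 9.25-fold fall (-3.21 ± 0.27 on the log2 scale, adjusted p = 0.00015 by edgeR's test). Hif1a was 1.88-fold lower in tongue (-0.91 ± 0.16, adjusted p = 0.0082), while Egln3 was higher, at 77.0, 122, 55.7 and 87.8 CPM against 24.97, 34.7, 37.6 and 36.2 (1.34 ± 0.21, adjusted p = 0.0045). For these 3 genes the 4 tongue libraries lay on 1 side of the 4 palate libraries.

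Ndrg1 stood at 80.0, 98.8, 48.2 and 40.4 CPM in tongue and 30.2, 42.9, 28.9 and 34.0 in palate (0.89 ± 0.16, adjusted p = 0.0095 by edgeR's test), with overlap. Car12 stood at 447, 377, 383 and 406 CPM in tongue and 210, 208, 243 and 109 in palate (1.07 ± 0.24, adjusted p = 0.022), without overlap. Ldhb and Egln3 passed in every alternative run. Hif1a was lost with limma on TPM (adjusted p = 0.14) and without either tongue nLRC library (0.050 to 0.070), Ndrg1 without the first tongue nLRC library (0.054), and Car12 without any 1 of 6 libraries, all but the palate nLRC (0.055 to 0.085). With the replicate number as a block 3 members passed, 2 higher and 1 lower, as did 605 of all 14923 genes. Hif1a was thus lost there too, as was Ndrg1 or Car12. Bulge markers stood at 68.5 to 122 CPM in tongue and 213 to 540 in palate, and sebocyte markers at 15.5 to 29.99 and 36.0 to 51.2, and their part was not tested. Without the first palate nLRC library 9 passed, without the first tongue nLRC library 2 and without the second 3.

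Palate and tongue together were compared with tail skin in the basal layer, and 15 of 39 members passed, against 32.3% of all genes (15.1% higher and 17.2% lower), with 11 higher and 4 lower in oral tissue. Slc16a1 stood at 51.6 to 87.3 CPM in the 8 oral libraries and at 11.7 to 26.0 in the 6 tail libraries, a 3.27-fold rise (1.71 ± 0.18 on the log2 scale, adjusted p = 2.9e-06 by edgeR's test). Hk1, at 107 to 145 CPM against 69.3 to 98.9, was 0.55 ± 0.08 higher (adjusted p = 8.3e-05). These were the only 2 of the 15 whose libraries did not overlap. Doxycycline was given for 2 weeks before tail skin and for 10 days before oral tissue was taken. A difference between these tissues cannot be told apart from that length.

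Fibroblast markers stood at 35.7 to 175 CPM in the oral libraries and 0.504 to 6.96 in tail basal cells, and sebocyte markers at 15.5 to 51.2 and 90.2 to 516. Of the 5 fibroblast markers, Lum was at 0 reads in every oral group, Col3a1 in all but palate LRC and Col1a2 in both oral LRC groups. In tail basal cells only Lum was, in nLRC. Their part in the result was not tested.

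The other 13 differed on average with overlap of libraries. Pfkl stood at 54.0 to 99.7 CPM in oral and 27.7 to 58.2 in tail libraries (0.88 ± 0.11, adjusted p = 2.5e-05 by edgeR's test), P4ha2 at 12.1 to 21.6 against 6.93 to 13.1 (0.83 ± 0.11, adjusted p = 3.3e-05), and Slc16a3 at 0.715 to 4.26 against 3.24 to 13.4 (-1.85 ± 0.29, adjusted p = 0.00015). The 2 kinases went opposite ways, Pdk1 at 27.8 to 40.7 against 38.7 to 59.4 CPM (-0.54 ± 0.11, adjusted p = 0.0019) and Pdk3 at 32.9 to 51.4 against 18.7 to 35.1 (0.50 ± 0.12, adjusted p = 0.0048). Aldoc was lower by 0.78 ± 0.18 (adjusted p = 0.0039), and the carbonic anhydrase Car12 higher by 0.65 ± 0.16 (adjusted p = 0.0063). Ndrg1, Car9, Aldoa, Gpi1 and Gapdh were higher by 0.32 to 1.02 and Slc2a1 lower by 0.38.

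The direction of the count depended on the scale: on TPM with limma 12 of the 37 tested passed, 4 higher and 8 lower. All genes moved that way too, from 2566 higher and 2909 lower in the main fit to 1421 higher and 3007 lower. On TPM with limma Hk1 (0.33, adjusted p = 0.073), Pdk3, Car12, Ndrg1, Aldoa, Gpi1 and Gapdh missed the threshold. Gpi1 was also lost with no filter on low counts (adjusted p = 0.078). Leaving out single libraries, 7 of them for Aldoa, 8 for Slc2a1 and 10 each for Gpi1 and Gapdh, gave an adjusted p of 0.051 to 0.11, and Ndrg1 was lost without the third tail nLRC library (0.051).

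The pathway genes outside the 39 were followed through a list of 59 symbols that was also written with earlier results known. In spinous LRC against nLRC 18 of its 53 tested genes passed, 2 higher and 16 lower, against 6.88% higher and 8.63% lower of all genes. The sebocyte markers, at 256 to 333 CPM in LRC and 3121 to 6944 in nLRC, moved with this count too. The lower ones were led by Pcx, pyruvate carboxylase (-3.01 ± 0.30, adjusted p = 1.2e-05 by edgeR's test), Angptl4, a lipoprotein lipase inhibitor (-5.22 ± 0.63, adjusted p = 7.8e-05), the mitochondrial pyruvate carrier Mpc1 (-1.28 ± 0.16, adjusted p = 0.00010) and the transketolase Tkt (-2.16 ± 0.29, adjusted p = 0.00016). These 4, Pcx, Angptl4, Mpc1 and Tkt, were higher in spinous than in basal nLRC, by 1.74, 2.19, 0.88 and 1.33, in a comparison that shares the nLRC libraries.

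In the bulge the list gave 12 higher and 11 lower of 53 in back skin, where 15.7% of all genes were higher and 10.6% lower. In tail skin it gave 11 higher and 6 lower of 48, where 14.2% were higher and 10.4% lower. Pdk2, a further pyruvate dehydrogenase kinase, rose in both (2.07 ± 0.24, adjusted p = 6.6e-06, and 1.31 ± 0.16, adjusted p = 0.00021, by edgeR's test), as did Slc16a7, the carrier MCT2 (1.62 ± 0.25, adjusted p = 0.00016, and 2.97 ± 0.37, adjusted p = 0.00029). Cited2, a HIF target that competes with HIF-1α for its coactivator, rose by 2.07 ± 0.34 (adjusted p = 0.00024) and 4.05 ± 0.19 (adjusted p = 5.6e-07). Ppp1r3c, which directs glycogen storage, had 0, 1 or 2 reads in the 6 back basal libraries and 123 to 224 in the back bulge, and rose by 5.49 ± 0.40 in the tail bulge (adjusted p = 6.8e-06).

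In tail basal LRC 1 of 48 genes of the list passed, against 4.6% of all genes: Pdha1, a pyruvate dehydrogenase subunit (-0.53 ± 0.12, adjusted p = 0.035 by edgeR's test), and in the back basal, palate and tongue pairs 0 of 53, 51 and 51. Oral against tail cells gave 18 higher and 9 lower of 53, against 15.1% and 17.2% of all genes, led by Bpgm, which makes 2,3-bisphosphoglycerate (2.72 ± 0.19, adjusted p = 3.6e-08), Slc16a7 (2.70 ± 0.29, adjusted p = 4.1e-06), Vhl, the ubiquitin ligase subunit that removes HIF (1.31 ± 0.16, adjusted p = 1.3e-05), and Epas1, which encodes HIF-2α (2.71 ± 0.37, adjusted p = 4.3e-05). Tongue against palate gave 6 higher and 4 lower of 51, against 4.91% and 4.71% of all genes, with Pdk4 among the higher ones (3.50 ± 0.70, adjusted p = 0.013) and the mitochondrial adenylate kinase Ak4 among the lower (-1.35 ± 0.25, adjusted p = 0.0099). Granular cells had 4 of 53 lower than spinous cells, Ak4, Plod1, Mpc1 and Slc16a7, against 1.54% of all genes. The spinous side included the nLRC group of high sebocyte markers, whose part was not tested.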

How the data were processed

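RNA of sorted cells from 35 libraries was made into SMARTer Stranded Total RNA Pico v2 libraries, per the labels' protocols, and the build was mm10 per the submitters' processing notes. For the aligner, counter, annotation and strand setting, the entry is: not given in the sources used here. Per the file headers the authors deposited for each gene a read count (total gene reads, which include intron reads), a TPM and an RPKM value. The deposited RPKM values were not used.

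Counts were tested with edgeR 4.0.16 (quasi-likelihood, TMM scaling, filterByExpr with a minimum count of 10 and total of 15) in R 4.3.3, separately for back, tail and oral libraries, and over tail and oral libraries for comparisons between them. P-values were adjusted by Benjamini-Hochberg over all genes tested, with a threshold of 0.05, and ± beside a log2 fold change is its standard error. As alternatives the fits were repeated with DESeq2 1.42.0, with limma 3.58.1 on log2(TPM + 1), under median-of-ratios scaling, without the filter, with the replicate number as a block and without single libraries. Each fit was tested on simulated data. Same-numbered libraries deviated together in the back basal, spinous, LRC, nLRC and granular comparisons and in tail basal cells (lowest pair correlation 0.109 over these). The numbers were therefore read as a likely pairing there. The main tests compared group means without a block, so their p-values and counts ignore that pairing. Fits with the block are given only as alternatives. The members and all gene lists were chosen with earlier results of these data known. Genes were named by role, by smallest p among those past the test, and Hif1a, Vegfa, Slc2a1, Ldha and Gapdh in every group. Libraries held 8421582 to 20560481 reads on genes.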

Additional observations from a re-analysis of the deposited data

Results flagged for a closer look

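The LRC effect on Slc16a1 differed between the spinous and basal layers of back skin by -3.70 on the log2 scale, by a test of the difference itself (adjusted p = 0.0093, edgeR's quasi-likelihood test). That call for Slc16a1 did not hold in every alternative (adjusted p = 0.050 without the first basal nLRC library, 0.055 without the first spinous LRC library and 0.17 with limma on TPM), and the spinous nLRC group held 3121 to 6944 CPM of sebocyte markers, whose part was not tested. Between basal LRC and nLRC, the signs of Pdk1 and Hif1a were opposite in the 2 skins, but none of these 4 differences passed the test: Pdk1 differed by 0.43 in back (adjusted p = 1) and -0.43 in tail skin (adjusted p = 0.16), and Hif1a by 0.57 (adjusted p = 0.70) and -0.70 (adjusted p = 0.051), where 0.235% and 4.6% of all genes passed. Between bulge and basal cells, Hk2 differed by 2.23 in back and -0.53 in tail skin, and Pfkp by -0.98 and 0.95. These differences between back and tail skin were not tested, since the skins were processed separately. Pdk1, Hif1a, Hk2 and Pfkp were picked from the members because their libraries did not overlap in either skin and the directions were opposite. The share of all genes with that pattern was not counted.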

How the results depend on the processing

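No called member reversed in any alternative. DESeq2 gave 1 member past the test for back basal cells, 3 for back LRC, 5 for back nLRC, 2 for the back LRC effect, 14 for tail basal cells, 1 for tongue and 2 for the oral against tail LRC effect. With no low-count filter the counts were 1, 2, 14, 3 and 4 for back basal, back LRC, tail basal, tongue and the oral against tail LRC effect. With limma on TPM they were 2 for spinous cells, 0 for back LRC, 1 for back nLRC, 0 for the back LRC effect and 0 for tail basal cells. With the replicate number as a block they were 1 for back basal, 12 for spinous, 6 for back LRC, 7 for back nLRC, 2 for granular, 2 for the back LRC effect, 16 for tail basal, 3 for tongue against palate and 2 for the oral against tail LRC effect; in the oral comparisons and the bulges the numbers were not taken as pairing. Leaving out single libraries gave 0 to 0 for back basal cells, 4 to 12 for spinous, 0 to 2 for back LRC, 2 to 6 for back nLRC, 0 to 0 for granular, 14 to 19 for the back bulge, 0 to 2 for the back LRC effect, 0 to 11 for tail basal cells, 8 to 13 for the tail bulge, 0 to 6 for palate, 0 to 0 for tongue, 2 to 9 for tongue against palate, 11 to 17 for oral against tail and 0 to 0 for their LRC effects. Over all genes the back basal count went from 39 to 219 with DESeq2, the palate count from 0 to 269 and the tongue count from 1 to 236 with no filter. The median of all genes shifted to 0.19 in tail basal cells and -0.26 in the back bulge with limma on TPM. The TPM in that fit were as deposited, without recalculation. Nuclear protein-coding genes without histones held 33.2% of them in the second back bulge library and 73.4 to 83.9% in the other back skin libraries. They held 28.7 to 30.0% in tail basal LRC and 25.7 to 29.1% in tail basal nLRC. The cause of the shifts was not tested.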
